A study of Mus musculus with 20 samples.

Results

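CLOCK and BMAL1 are basic helix-loop-helix proteins that bind DNA as a pair at E-box sequences and switch on the genes of the circadian clock. Among their targets are the genes of their own repressors, the Per and Cry genes, and factors such as Dbp, Tef and Hlf that pass the rhythm on to other genes. Embryonic stem cells (ESC) are known for lacking a running circadian clock, which appears when they differentiate. The comparison described here asks which genes change when Clock and Bmal1 (mouse symbol Arntl) are switched on in such cells for 6 hours. It rests on 4 of the 20 libraries of the study: ESC clones 1 and 7, which carry tetO-Clock/Bmal1, each with and without doxycycline (dox).

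The clones derive from KY1.1, a mouse ESC line, and the transgenes stand under a tetracycline operator (tetO), which dox activates. Treated cells received 500 ng/mL dox for 6 hours, and untreated cells of the same clone received none. Set beside them are 4 libraries of ESC clones 5 and 6 with tetO-Clock/Bmal1DN, in which Clock is induced with a dominant-negative form of Bmal1, and 1 library with and 1 without dox of a control ESC line. Each kind of transgenic line is thus represented by 2 clones, and nothing in the labels says that a clone was cultured more than once. The p-values rest on how far the dox effect differed between the 2 clones of a kind, in Clock/Bmal1 and ClockBmal1DN. The control line adds nothing to this spread. The libraries were made from total RNA, and reads were counted over whole gene bodies, introns included. Library totals were 56.3 and 57.3 M (mega) counts in untreated clones 1 and 7 and 40.8 and 41.1 M with dox, so depth moved with the treatment, and its part in the results was not tested. The other 6 ESC libraries held 40.3 to 49.4 M. All 12 ESC marker genes were detected in each of the 10 ESC libraries, with a summed level of 2565 to 3253 CPM (counts scaled to the library total after TMM normalisation). The 24 markers of fibroblast feeder cells summed to 838 CPM untreated and 1157 CPM with dox in clone 1, and to 1798 and 1652 CPM in clone 7. In ClockBmal1DN clone 6 they went from 3436 CPM untreated to 684 CPM with dox and in clone 5 from 891 to 902 CPM, and in the control line from 735 to 569 CPM. The part of these levels in the comparisons with ClockBmal1DN was not tested.

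Dox raised many genes and lowered few. Of 22540 genes tested, 146 rose (0.648%) and 8 fell (0.0355%), 0.683% in both directions, at an adjusted p under 0.05 with edgeR's quasi-likelihood test and clone as a block. Without the clone block 91 rose (0.404%) and 4 fell (0.0177%). At an unadjusted p under 0.05 there were 2182 genes in both directions. The median rise was 5.79-fold: 145 of the 146 genes rose more than 2-fold, 55 more than 8-fold and 14 more than 32-fold. Both treated libraries lay above all 8 other ESC libraries for 142 of the 146 genes, against 5.83% of all genes tested. The exceptions were Arntl and Clock themselves, Sycp2 and Arhgdib. For 7 of the 8 genes that fell, both treated libraries lay below the other 8, against 5.49% of all genes, and the exception was Zfp988. The genes were called from these same libraries, so both counts follow in part from the calling and are no separate support.

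Few of the genes that rose were abundant before. Their median untreated level was 1.94 CPM, against 4.45 CPM for all genes tested. The share under 1 CPM untreated was 34.9%, near the 34.7% of all genes, and 2.05% of them exceeded 50 CPM untreated, against 19.0% of all genes. Protein-coding genes made up 93.8% of those that rose and 70.9% of those tested. The genes that fell had a median untreated level of 25.2 CPM.

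The sequences bear on the factors that were induced, so promoters are shown first. CLOCK and BMAL1 bind best to the E-box with the letters CACGTG. RefSeq promoter sequences (assembly GRCm38.p6, 250 bases before to 50 after the start) matched 123 of the 154 called genes and 13829 of all genes tested. Of these, 112 and 12984 start within 1 kb of the deposited transcript's start, and the other windows belong to a different start of the gene. CACGTG, which reads the same on both strands, was present in 38 of 116 promoters of genes that rose (32.8%), against 1334 of 13829 promoters of all genes tested (9.65%). Of the promoters of genes that rose more than 8-fold, 17 of 42 (40.5%) held it, and of the smaller rises 21 of 74 (28.4%). The share was 6 of 12 on the list of circadian E-box targets and 32 of 104 (30.8%) among the other genes that rose. The variant AACGTG, searched on both strands, was in 6.9% of the promoters of rising genes and 5.2% of all, and the unrelated E-box CAGCTG was in 17.2% and 15.9%. TTATGTAA, the D-box read by DBP, TEF and HLF and searched on both strands, was in 1.72% and 0.622%, and TGACGTCA, the cyclic AMP response element, in 1.72% and 2.86%. None of these shares was tested.

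**Figure D1:**
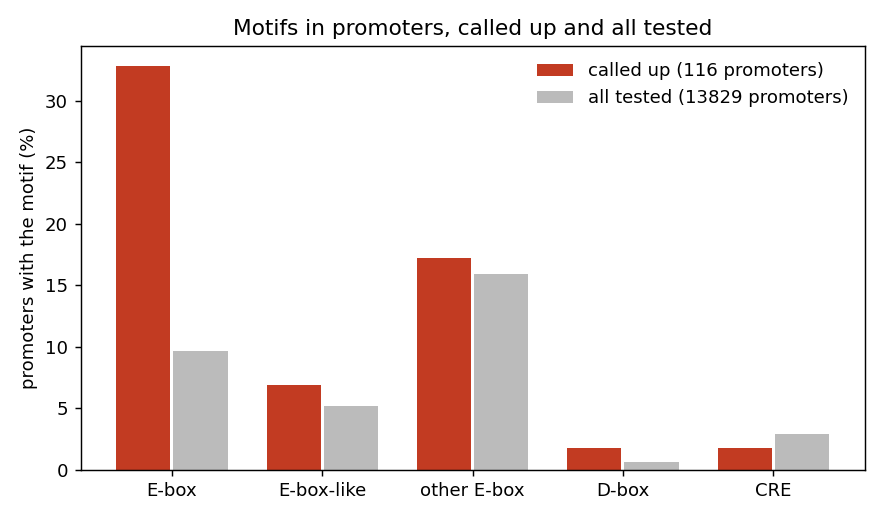
Share of promoters (vertical axis, percent, 300-base windows) with each motif in genes that rose (red, 116 promoters) and in all genes tested (grey, 13829 promoters); the E-box is CACGTG, the E-box-like motif AACGTG, the other E-box CAGCTG, the D-box TTATGTAA and CRE TGACGTCA. The E-box stands at 32.8% against 9.65%, and the bars of the other motifs lie nearer to each other.

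Printed below are the 250 bases upstream of the RefSeq start, 5′ to 3′ on the gene's strand, for 8 genes that rose and for Gbx2, the gene with CACGTG among the 7 reduced genes that had a promoter sequence. They were chosen to show E-boxes at genes of different kinds: a receptor (Ntsr2), a neuropeptide (Nmu), a transcription factor (Onecut1), an antioxidant enzyme (Gpx6), a signalling adaptor (Garem2), a clock repressor with 3 copies (Ciart), a Notch-modifying enzyme (Lfng) and a transporter subunit with 3 copies (Slc51a). Capitals mark CACGTG.
Ntsr2 (chr12:16653220-16653469, plus strand): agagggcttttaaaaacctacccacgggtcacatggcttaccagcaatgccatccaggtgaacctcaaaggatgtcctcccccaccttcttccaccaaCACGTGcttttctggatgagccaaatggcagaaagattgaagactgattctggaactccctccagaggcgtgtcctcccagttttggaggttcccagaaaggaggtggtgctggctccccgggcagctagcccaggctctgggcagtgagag
Nmu (chr5:76363778-76364027, minus strand): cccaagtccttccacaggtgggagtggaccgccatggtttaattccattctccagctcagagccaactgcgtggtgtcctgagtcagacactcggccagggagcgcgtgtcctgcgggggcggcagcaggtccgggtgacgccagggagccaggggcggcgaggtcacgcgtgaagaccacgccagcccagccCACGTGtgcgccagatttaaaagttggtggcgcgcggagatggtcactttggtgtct
Onecut1 (chr9:74861671-74861920, plus strand): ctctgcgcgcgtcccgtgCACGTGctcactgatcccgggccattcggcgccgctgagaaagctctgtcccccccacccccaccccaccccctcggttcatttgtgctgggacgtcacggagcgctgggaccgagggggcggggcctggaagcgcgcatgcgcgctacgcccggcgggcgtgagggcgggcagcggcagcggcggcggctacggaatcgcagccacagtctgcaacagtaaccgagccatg
Gpx6 (chr13:21311953-21312202, plus strand): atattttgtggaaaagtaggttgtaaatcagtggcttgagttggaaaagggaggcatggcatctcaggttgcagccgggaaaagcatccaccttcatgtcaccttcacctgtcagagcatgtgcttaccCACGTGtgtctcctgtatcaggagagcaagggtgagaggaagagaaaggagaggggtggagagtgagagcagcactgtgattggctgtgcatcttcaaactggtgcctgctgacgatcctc
Garem2 (chr5:30104946-30105195, plus strand): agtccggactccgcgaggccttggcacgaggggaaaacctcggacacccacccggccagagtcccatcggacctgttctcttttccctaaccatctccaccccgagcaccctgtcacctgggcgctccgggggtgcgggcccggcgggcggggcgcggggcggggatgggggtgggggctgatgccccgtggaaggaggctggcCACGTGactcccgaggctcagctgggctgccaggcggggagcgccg
Ciart (chr3:95882229-95882478, minus strand): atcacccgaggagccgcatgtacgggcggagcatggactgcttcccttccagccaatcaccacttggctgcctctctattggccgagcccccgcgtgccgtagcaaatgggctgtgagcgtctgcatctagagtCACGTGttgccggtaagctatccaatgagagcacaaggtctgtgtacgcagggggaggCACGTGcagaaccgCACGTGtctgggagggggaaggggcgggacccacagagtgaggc
Lfng (chr5:140607091-140607340, plus strand): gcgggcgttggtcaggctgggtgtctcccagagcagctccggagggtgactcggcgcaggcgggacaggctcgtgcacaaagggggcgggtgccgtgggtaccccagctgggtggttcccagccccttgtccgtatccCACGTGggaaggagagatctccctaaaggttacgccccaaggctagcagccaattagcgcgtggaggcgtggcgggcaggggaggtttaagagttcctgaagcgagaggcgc
Slc51a (chr16:32487880-32488129, minus strand): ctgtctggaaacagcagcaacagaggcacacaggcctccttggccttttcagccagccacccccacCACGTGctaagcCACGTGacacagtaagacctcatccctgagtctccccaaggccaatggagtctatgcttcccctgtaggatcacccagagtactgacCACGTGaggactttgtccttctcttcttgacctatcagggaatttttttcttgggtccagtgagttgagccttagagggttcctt
Gbx2 (chr1:89931177-89931426, minus strand): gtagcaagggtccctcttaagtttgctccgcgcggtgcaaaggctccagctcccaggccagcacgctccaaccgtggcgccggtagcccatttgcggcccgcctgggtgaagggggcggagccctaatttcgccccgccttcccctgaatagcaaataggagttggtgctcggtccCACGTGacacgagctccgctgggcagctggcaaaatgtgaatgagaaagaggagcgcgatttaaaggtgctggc
In Slc51a, which encodes a subunit of the bile acid and steroid transporter, 2 of the copies stand 6 bases apart. Among all promoters tested 3 held a pair of CACGTG or AACGTG motifs separated by 6 or 7 bases. The copy nearest to the start was 46 bases upstream in Garem2 and 57 in Nmu, and 232 in Onecut1. Rasd2, Spib, Trpm1, Nr4a3, Aqp3 and Foxo3 rose with no CACGTG in the window, which says only that the letters are not there.

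Transcription factors outside the clock formed one group of rising genes. The groups that follow were assembled from known functions after the values were seen, so their counts describe the called genes and support nothing further. The same holds for the shares of the gene lists, which were chosen with earlier results of these data known. The group of other transcription factors held 13 genes with a median log2 fold change of 3.86. Onecut1, a liver and neural factor of the cut homeobox family (chr9:74861921-74891781, mm10), was at 0.18 and 0.143 CPM in untreated clones 1 and 7 and at 7.97 and 5.51 CPM with dox. The control line had 0.33 CPM without and 0.127 CPM with dox. Both treated libraries thus stood far above every other, and the rise was 5.35 ± 0.407 (log2 fold change ± SE, n = 2 clones, edgeR adjusted p = 0.00141). The provisional gene Gm20649 overlaps Onecut1 on the same strand and rose by 3.08, and reads of this pair cannot be told apart. Spib, an ETS factor of B cells and plasmacytoid dendritic cells (chr7:44525993-44532071), went from 0.325 and 0.358 CPM to 9.96 and 10.1 CPM in clones 1 and 7, a rise of 4.86 ± 0.348 (edgeR adjusted p = 0.00128). Nr4a3, an orphan nuclear receptor gene induced early by many stimuli, went from 0.325 and 0.0715 CPM to 22.9 and 10.7 CPM. The rise differed 6.36 ± 0.842 log2 units from that in the ClockBmal1DN clones (adjusted p = 0.0439).

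Foxo3 was the transcription factor with the largest gain in reads outside the clock. This forkhead factor of stress resistance and longevity (chr10:42181841-42276752) was at 41.3 and 40.2 CPM untreated and at 277 and 175 CPM with dox in clones 1 and 7. The other 6 ESC libraries lay between 35.9 and 51.1 CPM, so the treated pair stood apart. The rise was 2.43 ± 0.218 on the log2 scale, 5.4-fold (edgeR adjusted p = 0.00246). Nkx1-1, a homeobox gene, had 3 counts in the untreated clones together and 220 with dox, a count ratio of 96.3 (95% interval 32.5 to 470, counting error only). Sox8 rose by 3.99, Scx, a tendon factor, by 3.86, Mef2c, a muscle and neural factor, by 3.46, Zic1, a neural factor, by 3.28 and Bcl11b, a T-cell and neural factor, by 2.29. Zic1 also went up in the control line, from 0 to 0.402 CPM. In clones 1 and 7 it went from 0.18 and 0.483 CPM to 2.13 and 4.08 CPM. Mnt, a partner of MAX that represses targets of MYC, rose from 7.27 and 3.61 CPM to 19.3 and 11.3 CPM (1.53 ± 0.259, edgeR adjusted p = 0.0419). Of 29 tested genes of the Myc, Max and Mxd network, 1 rose (Mnt) and 1 fell (Mycn), 6.9% against 0.683% of all genes tested. The median log2 change of the 29 was -0.02 (all genes tested: -0.01).

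**Figure D2:**
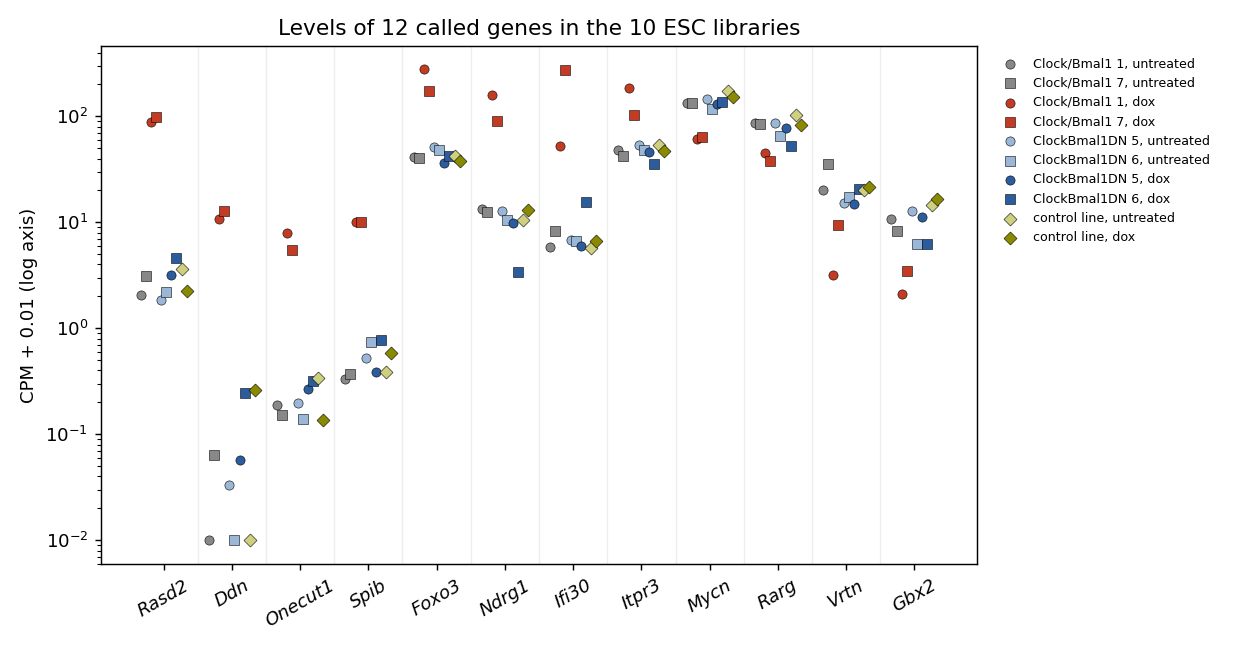
CPM plus 0.01 (log axis) of 12 called genes in the 10 ESC libraries, with 1 point per library. The red points (dox, Clock/Bmal1 clones 1 and 7) lie above all others for Rasd2 to Itpr3 and below all others for Mycn, Rarg, Vrtn and Gbx2, and Ifi30 separates the clones most, with 52.3 and 276 CPM.

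A few genes of peptide hormones and their receptors rose, some from almost no reads. Nmu, the gene of neuromedin U (chr5:76333495-76363788), was at 0.0541 and 0.125 CPM untreated and at 9.11 and 4.27 CPM with dox. The treated clones did not overlap the other libraries, which reached 0.148 CPM. Its log2 fold change was 6.08 ± 0.709 (edgeR adjusted p = 0.00768). Prok2, which encodes prokineticin 2, a peptide that carries the output of the brain's clock, had 1 count untreated and 106 with dox (count ratio 139, 95% interval 24.4 to 5547). Ntsr2, a neurotensin receptor gene, had 0 counts untreated and 217 with dox, at least 94.9-fold higher when 3 counts over the untreated group are taken as the floor. In the treated clones it reached 2.68 and 2.43 CPM. Of 34 tested neuropeptide and peptide hormone genes 3 rose (Nmu, Prok2 and Stc2) and none fell, with a median log2 change of 0.29. That is 8.82%, against 0.648% of all genes tested. This list was chosen with earlier results of these data known, so its share is a description only. Of 45 tested receptors of neuropeptides and transmitters 1 rose (Ntsr2), which is 2.22%, with a median of 0.02.

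Growth factor receptors and guidance molecules were among the called genes. Ntrk2, the receptor of brain-derived neurotrophic factor, went from 1.62 and 1.63 CPM to 30.5 and 14.7 CPM (3.7 ± 0.338, edgeR adjusted p = 0.00257). Insrr, a receptor of the insulin receptor family, rose by 4.34. Epha8, an ephrin receptor, went from 1.41 and 1.93 CPM to 26.9 and 16.2 CPM, and Efna3, an ephrin ligand, from 4.85 and 5.81 CPM to 33.0 and 31.8 CPM. These were the 2 genes that rose among 21 tested ephrins and Eph receptors, 9.52% against 0.648% of all genes tested. The median log2 change of the 21 was 0. Vldlr and Lrp5, members of the lipoprotein receptor family, rose by 2.79 and 1.53. Gpr146, an orphan receptor, rose by 4.36, from 0.18 and 0.233 CPM to 5.75 and 3.18 CPM in clones 1 and 7. It also went up in the control line, from 0.044 to 0.698 CPM.

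Several genes known from neurons and synapses rose. Ddn, which encodes dendrin, a protein of dendrites and of kidney podocytes (chr15:98803777-98807925), was at 0 and 0.0537 CPM untreated and at 10.8 and 12.7 CPM with dox. That is 3 counts against 995, a ratio of 435 (95% interval 149 to 2115). The control line went from 0 to 0.254 CPM and ClockBmal1DN clone 6 from 0 to 0.237 CPM, far below the treated Clock/Bmal1 clones. Lingo1, a leucine-rich repeat protein that limits myelination, rose by 4.43, Elfn2 and Lrrc4b, synaptic leucine-rich repeat proteins, by 4.98 and 4.69, and Camkv, a pseudokinase of dendritic spines, from 23.8 and 18.7 CPM to 102 and 67.4 CPM. Of 39 tested genes on the list of synapse and neuronal structure 1 rose, Ddn (2.56%, against 0.683% of all genes called). The list's median log2 change was 0.3. At an unadjusted p under 0.05 there were 10 of the 39, and 2182 of all 22540 genes tested.

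Ras signalling held the gene with the smallest adjusted p. Rasd2 (chr8:75213944-75224113) encodes Rhes, a small GTPase of the striatum. It was at 2.07 and 3.08 CPM in untreated clones 1 and 7 and at 88.6 and 98.0 CPM with dox. The other 6 libraries lay between 1.84 and 4.55 CPM, so the groups did not overlap. The rise was 5.2 ± 0.253, 36.8-fold (edgeR adjusted p = 0.00026), and it remained called without clone 1 (5.0, adjusted p = 0.00282) and without clone 7 (5.42, adjusted p = 0.00371). It also differed from the change in the ClockBmal1DN clones by 4.27 ± 0.326 (adjusted p = 0.00566). Garem2, an adaptor between growth factor receptors and ERK, went from 1.24 and 1.4 CPM to 25.2 and 19.2 CPM, and Rasl11b, a small GTPase, from 2.31 and 1.79 CPM to 14.3 and 11.6 CPM. With Rap1gap, which inactivates RAP1, 4 of 42 tested Ras-family genes and regulators rose and none fell, and the median of all 42 was 0.03. The share that rose was 9.52%, against 0.648% of all genes tested. This list was chosen with earlier results of these data known, so its share is a description only.

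Phosphatases, kinases and their regulators were also among the called genes. Dusp2 and Dusp3, dual-specificity phosphatases that act on MAP kinases, rose by 2.23 and 1.65. These were the called genes among 23 tested members of that family, 8.7% against 0.683% of all genes tested. The family's median was 0.37, with 10 at an unadjusted p under 0.05 (2182 of all 22540 genes tested). Ppp1r1b, the gene of DARPP-32, a dopamine-regulated phosphatase inhibitor, went from 0.288 and 0.447 CPM to 7.03 and 6.95 CPM (4.26 ± 0.409, edgeR adjusted p = 0.00308). Camkk1 and Eef2k, calmodulin-dependent kinases, rose by 1.69 and 1.9, and Pde4a, a cyclic AMP phosphodiesterase, by 2.12. Ndrg1, a gene known for its response to hypoxia and differentiation, rose from 13.4 and 12.4 CPM to 158 and 89.4 CPM (3.2 ± 0.326, edgeR adjusted p = 0.00425). It was the called gene among 33 tested genes of hypoxia and glycolysis (3.03%, against 0.683% of all genes tested), whose median was 0.05. Gm2895 lies across Ndrg1 on the opposite strand and rose too, from 2 to 96 counts. How the authors' counting used strand is not given in the sources used here. Across the table, the median read density of a gene lying inside a larger one was 0.0146 of the larger gene's where the strands differed and 0.305 where they matched.

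Channels and transporters made up 14 of the called genes, with a median log2 fold change of 2.47. Aqp3, an aquaporin that passes water and glycerol (chr4:41092722-41098183), was at 8.85 and 4.22 CPM untreated and at 56.5 and 48.4 CPM with dox, while the other 6 libraries lay between 6.07 and 10.2 CPM. The rise was 3.09 ± 0.267 (edgeR adjusted p = 0.00233). Aqp5 rose by 2.26, and 2 of 6 tested aquaporins were called (33.3%, against 0.683% of all genes tested). Aqp6 and Aqp11 had log2 changes of 2.98 (edgeR adjusted p = 0.407) and 1.1 (0.49), Aqp9 -1.96 (0.451) and Aqp1 0.06 (0.985). Trpm1, a cation channel of melanocytes and retinal bipolar cells, went from 0.847 and 0.662 CPM to 25.3 and 13.6 CPM (4.63 ± 0.381, edgeR adjusted p = 0.0018). Itpr3, an inositol trisphosphate receptor that releases calcium from the endoplasmic reticulum, rose from 48.1 and 42.5 CPM to 186 and 103 CPM. Of 319 tested solute carriers 4 rose (1.25%, against 0.648% of all genes tested): Slc5a2, the renal glucose transporter SGLT2, by 4.94, Slc7a2, a cationic amino acid transporter, by 2.6, Slc51a by 2.25 and Slc30a1, a zinc exporter, by 1.54. Their family's median was 0.04.

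Enzymes rose in 16 cases, with a median log2 fold change of 2.08. Ifi30, a lysosomal thiol reductase of antigen processing (chr8:70762774-70766663), gained the most reads of them. It went from 5.82 to 52.3 CPM in clone 1 and from 8.19 to 276 CPM in clone 7, so both clones rose but by different amounts. ClockBmal1DN clone 6 went from 6.61 to 15.5 CPM. The fit gave 4.13 ± 0.504 (edgeR adjusted p = 0.00902). Gpx6, a glutathione peroxidase, went from 0.685 and 0.447 CPM to 13.9 and 12.6 CPM. The control line listed 0 CPM without and 0.592 CPM with dox for it. In ClockBmal1DN clones 5 and 6 it went from 0.28 and 0.392 CPM to 0.935 and 1.71 CPM. Gpx6 thus went up with dox in every ESC pair, most in CPM in the Clock/Bmal1 clones. Its difference from ClockBmal1DN, 2.63, was not called (edgeR adjusted p = 0.138). Lfng and Dtx1, modifiers of Notch signalling, rose by 2.8 and 1.35, and no other of the 33 tested Notch and segmentation clock genes was called. The called share was 6.06%, against 0.683% of all genes tested. Pdxk, which makes the active form of vitamin B6, rose by 1.81, and Coq10b, a coenzyme Q binding protein, by 1.35. Cdkn1c, a cell cycle inhibitor, was the called gene among 37 cell cycle regulators (2.7%, against 0.683% of all genes tested). It rose from 34.0 and 57.9 CPM to 91.5 and 111 CPM (1.18 ± 0.206, edgeR adjusted p = 0.048). Ccno, a cyclin-like gene of multiciliated cells, rose by 2.9, and Sycp2 and Sycp3, components of the meiotic synaptonemal complex, by 2.0 and 1.94.

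**Figure D3:**
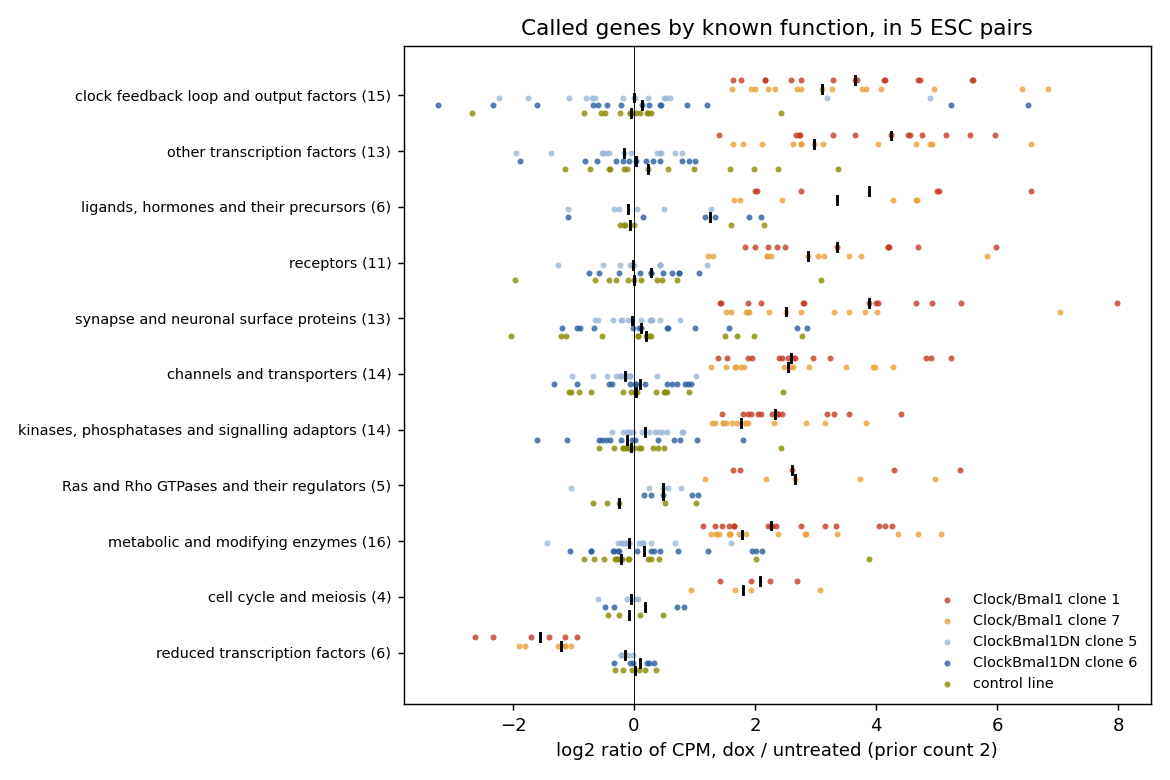
Log2 ratio of CPM with dox to untreated (horizontal axis) of 117 called genes in 11 groups by known function, for each of 5 ESC pairs; points are genes and black marks are medians. In the groups that rose, the medians of Clock/Bmal1 clones 1 and 7 lie between 1.76 and 4.24, and the points of most genes in the control line and in the ClockBmal1DN clones scatter around 0.

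Most listed targets of the clock's E-boxes rose. Of 22 listed circadian E-box targets 14 rose (63.6%, against 0.683% of all genes called) and none fell, and 8 did not pass. Their median log2 change was 2.46, against -0.01 for all genes tested. This list was chosen with the result known. Tef, an output factor, had the largest gain in reads among them after Nr1d2, from 22.3 and 28.6 CPM to 151 and 144 CPM. Cry1, a repressor, rose from 28.9 and 19.6 CPM to 98.5 and 78.8 CPM. None of 21 other tested clock components was called (2 at an unadjusted p under 0.05), and none of 13 tested output genes of REV-ERB and the PAR bZIP factors (6 at an unadjusted p under 0.05).

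The 8 genes that fell included 6 genes of transcription factors or DNA-binding proteins. The share of such genes among all genes tested was not counted. Mycn, the proto-oncogene abundant in stem cells (chr12:12936093-12941914), was at 134 and 133 CPM in untreated clones 1 and 7 and at 61.0 and 64.2 CPM with dox, while the other 6 libraries lay between 117 and 172 CPM. It fell by 1.09 ± 0.181 on the log2 scale, 2.13-fold (edgeR adjusted p = 0.039). With an offset for gene-body length its adjusted p was 0.061. Rarg, a retinoic acid receptor, went from 86.1 and 84.1 CPM to 44.7 and 38.1 CPM, a fall of 2.06-fold (edgeR adjusted p = 0.0422). Vrtn, a regulator of vertebral number (chr12:84641019-84651455), went from 20.1 and 35.5 CPM to 3.21 and 9.5 CPM, 4.8-fold lower with dox (edgeR adjusted p = 0.00718). Gbx2, a homeobox gene of naive pluripotency, went from 10.7 and 8.32 CPM to 2.11 and 3.45 CPM, 3.49-fold lower (edgeR adjusted p = 0.0412, and 0.0527 with the length offset). Foxr2, a forkhead gene on the X chromosome, fell 3.44-fold and Zfp988, a zinc-finger gene, 2.42-fold. The remaining pair was Dhrs7, a dehydrogenase, and the provisional gene Gm17546. No fall was called both without clone 1 and without clone 7.

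Few pluripotency and lineage genes were called, though some lists lay above the share of all genes tested. None of the 12 ESC markers passed, and their median log2 change was 0, with 5 at an unadjusted p under 0.05 (2182 of all 22540 genes tested). Of 27 tested genes of naive pluripotency Gbx2 alone was called (3.7%, against 0.683% of all genes tested). In that list 13 had an unadjusted p under 0.05, and the median was -0.25. Esrrb went from 79.0 and 42.5 CPM to 160 and 99.1 CPM (1.12, edgeR adjusted p = 0.0519) and Nanog from 124 and 84.6 CPM to 67.1 and 68.7 CPM (-0.59, edgeR adjusted p = 0.361). Otx2, a factor of primed cells, went from 26.8 and 38.3 CPM to 10.9 and 23.9 CPM (-0.99, edgeR adjusted p = 0.144). In the TGF-beta family none of 46 tested genes passed (10 at an unadjusted p under 0.05). Among them Lefty1 went from 102 and 82.4 CPM to 224 and 193 CPM (1.18, edgeR adjusted p = 0.0658). Of 49 Wnt genes 1 rose, Lrp5 (2.04%), and of 33 immediate early genes 2, Nr4a3 and Egr4 (6.06%). The immediate early list had a median log2 change of 0.43, with 12 at an unadjusted p under 0.05. Fos (0.03) and Egr1 (0.17) had log2 changes near 0. None of 23 p53 targets (2 at an unadjusted p under 0.05), 22 genes of the unfolded protein response and heat shock (2) and 29 genes of cholesterol and fatty acid synthesis (1) was called.

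The clones differed in size of response. All 146 rising genes had the same sign in clones 1 and 7, against 14668 of the 22540 genes tested. The log2 ratios of the 146 genes correlated with Pearson's r of 0.88. These genes share 4 libraries and were called from them, so neither result is independent of the calls. The ratio was larger in clone 1 for 100 genes and in clone 7 for 46, with medians of 2.69 and 2.32. That is 68.5% larger in clone 1, against 51.1% of all genes tested. Clone 1 exceeded clone 7 by more than 1 log2 unit for 21 genes and clone 7 exceeded clone 1 by that much for 2, Ifi30 and Bhlhe41. Among all 22540 genes tested these counts were 1793 and 1585. Arntl reached 2205 CPM in treated clone 1 and 4132 CPM in treated clone 7, and Clock 700 and 574 CPM, counts that include the transgenes. Lingo1 had log2 ratios of 5.41 in clone 1 and 3.3 in clone 7. Eno3, the muscle enolase, had 1.57 and 1.58, and Coq10b 1.35 and 1.36. With 1 library per clone and condition the difference between clones has no test.

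**Figure D4:**
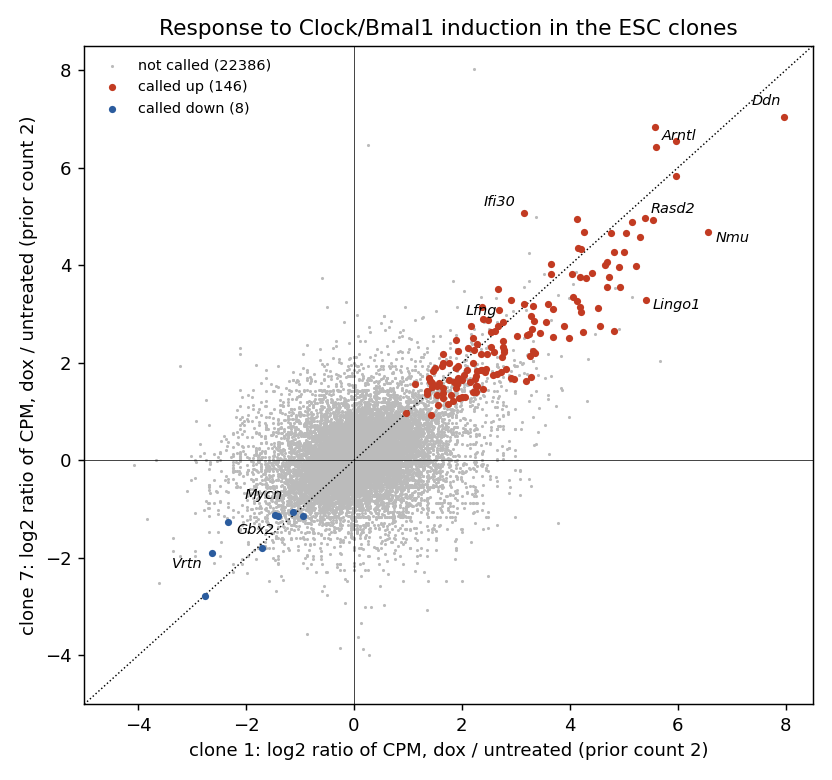
Log2 ratio of CPM with dox to untreated in clone 1 (horizontal) and clone 7 (vertical) for each of 22540 genes tested, with genes that rose in red (146), genes that fell in blue (8) and the rest in grey; the dotted line marks equal ratios. Most red points lie below the line, on the side of clone 1, and Ifi30 stands above it.

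Gene-body length moved with the clone difference. Rising genes with the larger ratio in clone 1 had a median gene body of 26.6 kb and those with the larger ratio in clone 7 one of 11.4 kb (Spearman's rho of the difference with length 0.31 across the 146 genes). The same trend ran through all 15252 genes with at least 1 CPM in a group, where rho was 0.33. In that set the median difference went from -0.143 for gene bodies under 5 kb to 0.257 over 80 kb. In clone 1 alone the median log2 ratio was -0.294 under 5 kb and 0.294 over 80 kb, in clone 7 -0.128 and 0.001, and in the control line 0.095 and -0.213. The part of length in the difference between clones was not tested. With each library corrected for length, 156 genes rose and 11 fell, and 146 of the 154 calls remained.

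**Figure D5:**
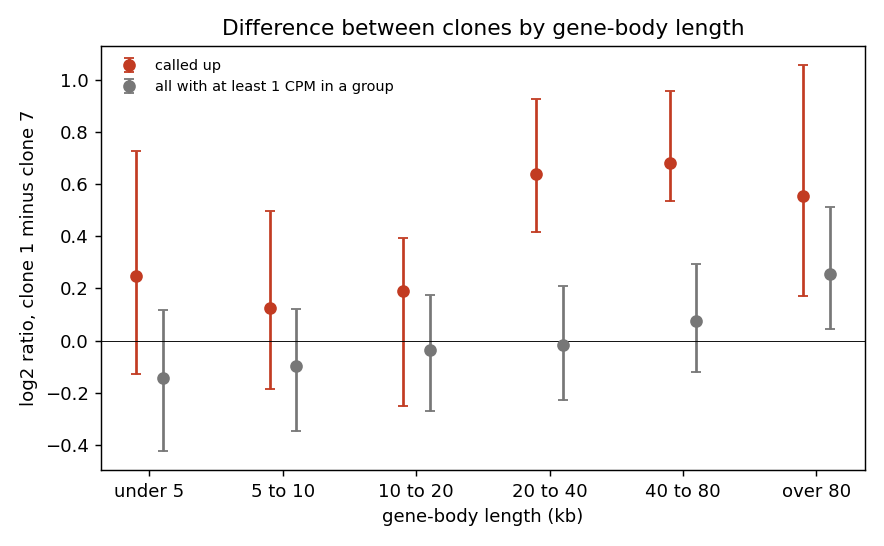
Difference in log2 ratio between clone 1 and clone 7 (vertical axis) by gene-body length class (horizontal axis, kb); points are medians and bars the quartiles, for genes that rose (red) and for all genes with at least 1 CPM in a group (grey). Grey medians go from -0.143 to 0.257, and the red medians lie above the grey ones in every class.

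The response differed from that of ClockBmal1DN for part of the genes. The Clock/Bmal1 effect exceeded the ClockBmal1DN effect for 25 of the 22540 genes (0.111%) and was below it for 0, with 1500 at an unadjusted p under 0.05 by edgeR. DESeq2 called 159 and 4. All 25 were among the 146 that rose. They were clock genes (Bhlhe41, Ciart, Hlf, Dbp, Nr1d1, Per1, Per3 and Tef) and also Rasd2, Nr4a3, Spib, Trpm1, Garem2, Islr2, Ntrk2, Ndrg1, Pcsk4, Aqp3, Ccno, Lfng, Efna3, Foxo3, Tjp3, Foxred2 and the provisional gene 9530059O14Rik. Median changes of the 146 were 0.13 in the ClockBmal1DN clones and -0.05 in the control line. In the control line 20 of the 146 had a log2 ratio above 1 (all genes tested: 2016 of 22540). In either direction 29 lay beyond 1 (all genes tested: 3949). Arntl was the called gene of the 146 in ClockBmal1DN, at 1615 and 4067 CPM with dox in clones 5 and 6. Clock went there from 35.7 and 39.7 CPM to 324 and 1499 CPM and was not called (4.21, edgeR adjusted p = 0.155). A missing call in that line thus does not show that a gene stayed unchanged. Against the control line, which has no replicate, 2 genes differed (0.00887%), Rasd2 and Hlf, with DESeq2 calling 103 and 4.

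Few rising genes stood next to another, though at a larger share than among all genes tested. Of 121 with a tested gene within 20 kb, 8 had a rising nearest neighbour (6.61%, against 0.647% of all genes tested). In most of these the gene bodies overlap. Onecut1 with Gm20649 and Rps6ka4 with CAAA01066123.1 lie on the same strand, so that reads may be shared. Gm2895 with Ndrg1 and Pi16 with Gm46603 overlap on opposite strands. Rps6ka4 with CAAA01066123.1 and Pi16 with Gm46603 each enter the 8 from both sides. Without overlap, Egr4 lies 8.13 kb from Fbxo41 and Sycp2 3.52 kb from Ppp1r3d. Same-strand overlaps also make the counts of Hyal1 and Naa80, of Per3 with Camta1 and of Ntn3 with Tbc1d24 uncertain.

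The calls rest on both clones. Without the pair of clone 1, 18 genes rose and 5 fell and 16 of the 154 calls were kept, and without the pair of clone 7, 46 rose and 1 fell and 44 were kept. Both of these fits kept Hlf, Gpx6, Nr4a3, Lfng, Bhlhe41, Spib, Ciart, Arntl, Aqp3, Onecut1, Ddn, Dbp, Trpm1, Rasd2 and Ifi30. The ClockBmal1DN pairs, which set the spread together with these, weigh on the number of calls: without clone 5 of that line 1446 genes rose and 462 fell, without clone 6 1446 and 636, with all 154 calls kept in both.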

How the data were processed

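Total RNA was sequenced as stranded libraries, per the labels' protocols. The submitters' processing notes name bcl2fastq, STAR 2.7.2a, HOMER and mm10. The authors deposited expected counts (estimated counts in steps of 0.5) over the gene bodies of 55421 known canonical transcripts, without normalisation per the file headers. Counts ending in 0.5 were rounded up. The deposited RPKM columns and the table of the other cell type were not used. The 10 ESC libraries were fitted with edgeR 4.0.16 in R 4.3.3 (TMM, filterByExpr by group, quasi-likelihood F-test, two-sided, Benjamini-Hochberg over all genes), with the 5 clones or lines as block and a dox effect for each kind of line, leaving 2 residual degrees of freedom. Clone numbers pair libraries of the same cell line. Deviations of the clones from their group means correlated at 0.65 between untreated and treated Clock/Bmal1 libraries and at -0.089 for ClockBmal1DN. SE is the log2 fold change over the square root of F. Per-clone log2 ratios use CPM with a prior count of 2. Tested on simulated data for this comparison (21362 genes), the fit recovered 45% of 100 log2 changes of 1 and 98% of 100 of 2, with 17 false among 160 calls. Changes were placed only in genes with a mean of at least 1 CPM, and clones and lines were simulated without differences between them. The rates therefore do not cover genes with fewer reads or clones that differ. Named genes are the clock genes and Lfng, the largest changes, and members of 27 lists and 46 families that passed; other genes were chosen after their values were seen, and some called genes are not reported here. Members and lists were chosen with earlier results of these data known. Alternatives were other normalisations, filters, tools (DESeq2 1.42.0, limma 3.58.1), rounding, and leaving out clones.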

Additional observations from a re-analysis of the deposited data

Results flagged for a closer look

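Named genes whose dox effect in the Clock/Bmal1 clones differed from that in the ClockBmal1DN clones, by edgeR's test of the difference at an adjusted p under 0.05, were singled out. All differences were above 0 on the log2 scale, and both Clock/Bmal1 clones rose for each. Among clock genes the difference was 6.67 for Hlf, 6.35 for Bhlhe41, 6.21 for Dbp, 5.14 for Nr1d1, 3.86 for Ciart, 2.78 for Per1 and 2.21 for Tef. For other transcription factors it was 6.36 for Nr4a3, 5.05 for Spib and 2.78 for Foxo3. Signalling genes gave 4.48 for Garem2, 4.27 for Rasd2, 4.18 for Ndrg1, 3.28 for Efna3 and 2.48 for Lfng. Channel genes gave 5.32 for Trpm1 and 3.12 for Aqp3, and the provisional gene 9530059O14Rik gave 3.38. In the ClockBmal1DN clones Dbp, Hlf and Nr1d1 had log2 changes of -2.45, -2.2 and -1.72, none of which passed the test there.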

How the results depend on the processing

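Genes that rose numbered 146 and genes that fell 8. The counts were 91 and 4 with no replicate block, 901 and 216 with the replicate block and the 4 Clock/Bmal1 libraries alone, 616 and 119 with no filter on low counts and 382 and 60 with DESeq2. At least 1 CPM in a group gave 119 and 4. Leaving out a clone pair gave 18 to 46 rises and 1 to 5 falls. Chosen after seeing the data, fits without ClockBmal1DN clone 5 gave 1446 and 462 and without clone 6 1446 and 636; the cause was not tested. RLE size factors (165 and 8), limma voom (195 and 10), counts ending in 0.5 rounded down (162 and 10) and the length offset (156 and 11) kept the counts within 1.5 times. Genes whose effect exceeded that in ClockBmal1DN numbered 25, with 0 below it: 13 with no replicate block, 438 (31 below) with no filter, 9 at 1 CPM, 159 (4 below) with DESeq2, 14 with voom, and 6 to 7 without a clone pair. Those exceeding the control line numbered 2, with 0 below: 4 with RLE factors or rounding down, 358 (153 below) with no filter, 103 (4 below) with DESeq2, 1 with voom, and 4 to 5 without a clone pair (1 below without clone 1). Promoters of rising genes with an E-box went from 32.8% to 38.8% with AACGTG added. Of 102 named genes, of which 82 were called, none changed direction. With no replicate block 27 lost their call, and with at least 1 CPM in a group 15 did. Leaving out the pair of clone 1 or that of clone 7 cost more of these calls than either setting. With 2 clones and 2 residual degrees of freedom, small changes were often not detectable: on simulated data 45% of 2-fold changes were recovered, in genes with a mean of at least 1 CPM.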

Other observations

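Clustered protocadherins, adhesion proteins that give neurons their surface identity, gave no call. The 14 tested Pcdha genes had a median log2 change of 2.25 (2.67 in clone 1, 1.72 in clone 7), with 13 at an unadjusted p under 0.05 and a lowest edgeR adjusted p of 0.0584. The 22 Pcdhg genes had a median of 0.87 (0.91 in clone 1, 0.81 in clone 7), all 22 at an unadjusted p under 0.05, and the 7 Pcdhb genes one of 0.49 (-0.74 in clone 1, 0.74 in clone 7) with 0. The median of Pcdha was -0.88 in the control line and -0.91 in the ClockBmal1DN clones. Members of the Pcdha and Pcdhg clusters share their last exons and their gene bodies overlap, so these are not separate measurements. Replication-dependent histone genes gave no call in 70 tested, with 18 at an unadjusted p under 0.05 and a median of -0.4 (-0.45 in clone 1, -0.32 in clone 7).

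AY036118 and CT010467.1, neighbouring gene models on chromosome 17 of which GENCODE classes the second as ribosomal RNA, stood high in the treated library of clone 7 alone, at 25.3 and 3.76 CPM. Treated clone 1 had 0.664 and 0.16 CPM. Neither was called (edgeR adjusted p = 0.0688 and 0.451), and they were chosen after their values were seen.

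Some genes lay just outside the threshold: Cela1, a pancreatic elastase, had log2 ratios of 4.34 and 2.07 in clones 1 and 7 (edgeR adjusted p = 0.0546), and Helt, a helix-loop-helix factor, 3.38 and 5.0 (edgeR adjusted p = 0.0689). They were chosen after their values were seen.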
